A study of Mus musculus with 10 samples.

Results

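The 48 genes described here carry the cyclic nucleotide signal in renin cells: the G protein alpha subunits and adenylyl cyclases that set cAMP production, the subunits of protein kinase A, the phosphodiesterases that break cAMP and cGMP down, protein kinase G, anchoring proteins, and the nuclear factors of the CREB family with their co-activators. They were chosen by gene symbol from the 32648 genes of the deposited table, and all 48 had a row and passed the filter on low counts that left 18825 genes for testing. Renin cells were sorted from the kidney cortex of Ren1c-YFP mice of the C57BL/6 strain, 8 to 12 weeks old, at 72 h after surgery. In these mice the regulatory sequence of the renin gene drives a yellow fluorescent protein, and living cells with that fluorescence were collected, 1000 from each kidney. The 4 groups were the right kidneys and the left kidneys of mice with aortic coarctation (3 of each) and the right kidneys and the left kidneys of sham mice (2 of each). The coarctation narrowed the aorta between the origins of the renal arteries, and the sham operation left out the exposure and the narrowing of the aorta. Every mouse gave both kidneys, so that each right kidney has a left partner, and all mice carry the reporter and share the strain. The labels state neither blood pressures nor sexes.

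In renin cells cAMP is the main intracellular signal for renin release and for transcription of the renin gene. A receptor coupled to the stimulatory G protein alpha subunit switches adenylyl cyclase on, an inhibitory alpha subunit switches it off, and the cAMP made frees the catalytic subunits of protein kinase A from their regulatory subunits. The freed kinase phosphorylates CREB family factors, which bind the cAMP response element and recruit histone acetyltransferases, while phosphodiesterases end the signal. Calcium lowers cAMP in these cells by inhibiting some cyclases and activating some phosphodiesterases. The second cyclic nucleotide, cGMP, favours renin release through the cGMP-inhibited phosphodiesterase and opposes it through protein kinase G II.

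The cAMP response element is the sequence by which genes answer to the nuclear factors of this pathway. In their own promoters, 1 member carries it in full and 16 carry at least a shorter part of it. The promoters are shown for that reason, with no bearing on whether a factor was bound there. RefSeq promoters (build GRCm38.p6, from 250 bases before to 50 bases after a start site) were found for 36 of the 48 members, 76 promoters in all. On either strand, the full element TGACGTCA was present in 2 of the 76 (2.63%), against 1.79% of all 32851 promoters in the table. The shorter element, TGACG or its reverse complement CGTCA, which the full element contains, was present in 20 of the 76 (26.3%), against 20.8% of all promoters. The windows below come from the most abundant member of each functional class that had an element, 1 window per gene and 30 bases each, 5′ to 3′ on the strand of the gene, with the element in capitals.
Prkar1a: gcgaggcgcatTGACGTCAgcagccgaacg
Gnas: gaagaggttggggCGTCAtcaggctggtta
Pde4b: tgatttggctgcaCGTCAattttctcatct
Pde1a: tgtaacttcagccCGTCAttcctcagtaat
The Prkar1a window lies at chr11:109650889-109650918 on the plus strand, and its element begins 49 bases upstream of the start site. The Gnas window lies at chr2:174327698-174327727 on the plus strand and begins its element 38 and 57 bases upstream of a pair of neighbouring start sites. Another CGTCA, not shown, begins 216 bases upstream of a different Gnas start site. Which start site gave the Gnas transcripts counted here was not tested. The Pde4b window lies at chr4:102421508-102421537 on the plus strand, with its element 34 bases upstream. The Pde1a window lies at chr2:80039052-80039081 on the minus strand, with its element 166 bases upstream in 1 of 4 promoters. Both full elements counted among the members are this Prkar1a site, read from different start sites. Adcy6, Akap12 and Crem, the most abundant of their classes, were among the members without a promoter in the source. They were not searched, so that no window is shown and whether they carry an element is not known here.

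The libraries held 20029817 to 32006229 estimated counts. Both libraries of sham mouse 1 stood apart from the others on the first principal component of log2 CPM, so that values without mouse 1 of each surgery were also computed. Ren1, the renin gene and the defining marker of the sorted cells, was at 5451, 11982 and 10835 TPM in right and 29285, 48620 and 36877 TPM in left kidneys of coarctation mice, and at 21776 and 48591 TPM in right and 30521 and 43896 TPM in left kidneys of sham mice. The log2 change of Ren1, right minus left in coarctation mice, was -2.20 (SE 0.36, edgeR adjusted p = 0.165; 0.00275 with the mouse as a replicate block). The other genes listed as markers of renin cells, Akr1b7, Gja5, Kcnj8, Abcc9 and Rgs5, were present in every library. Ren1 included, 5 of the 6 had a log2 change below 0 in coarctation mice, right minus left, and 1 above. Their median was -1.02. In coarctation mice the reporter EYFP averaged 133 ± 63.0 TPM in right and 580 ± 329 TPM in left kidneys (SD, n = 3). In sham mice it averaged 577 ± 568 TPM in right and 453 ± 373 TPM in left kidneys (SD, n = 2). Markers of other cells were also present: the summed level of 10 collecting duct and distal nephron markers was 193 to 1012 TPM in right and 92.6 to 282 TPM in left kidneys of coarctation mice, and 115 to 302 TPM in right and 233 to 440.5 TPM in left kidneys of sham mice. The 10 leukocyte markers summed to 279.5 to 935 TPM in right and 65.8 to 427 TPM in left kidneys of coarctation mice, and to 124 to 321.5 TPM in right and 122 to 435 TPM in left kidneys of sham mice, with S100a9 at 0 in all coarctation right kidneys. Between the kidneys of coarctation mice, 8 of the 10 collecting duct markers and 8 of the 10 leukocyte markers had a log2 change above 0, right minus left. The leukocyte markers below 0 were S100a8 and S100a9, which rested on 1 library. They were at 70.4 and 29.1 TPM in the left kidney of coarctation mouse 2, and at 1.56 TPM or less in every other library. The 5 podocyte markers summed to 17.9 to 23.9 TPM in right and 21.6 to 44.7 TPM in left kidneys of coarctation mice, and to 35.9 to 42.6 TPM in right and 30.3 to 43.6 TPM in left kidneys of sham mice. All 5 had a log2 change below 0 in coarctation right kidneys, with a median of -1.58 against their left partners and -3.10 against sham right kidneys. The 5 endothelial markers summed to 85.6 to 102 TPM in right and 59.4 to 84.1 TPM in left kidneys of coarctation mice, which did not overlap, and to 69.7 to 90.6 TPM in right and 79.7 to 95.5 TPM in left kidneys of sham mice. Smooth muscle markers (4 genes) summed to 1943 to 4644 TPM in right and 1891 to 3406 TPM in left kidneys of coarctation mice. In sham mice they summed to 1739 to 3834 TPM in right and 1514 to 3265 TPM in left kidneys. These were the highest sums of other cells. The 6 proximal tubule markers summed to 60.8 to 120 TPM in right and 39.9 to 166 TPM in left kidneys of coarctation mice. In sham mice they summed to 28.1 to 121 TPM in right and 65.9 to 145 TPM in left kidneys. The part of these other cells in the values below was not tested. In sorted pools, fewer cells of a type and less RNA per cell cannot be told apart.

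Levels across the family are given in TPM, which is per transcript length, so that genes can be set beside each other. TPM lacks the library normalization used in the test, so that overlap and direction in TPM can differ from the fitted change. Of all tested genes, 17.2% were lower and 4.87% higher in coarctation than in sham left kidneys without overlap in TPM. Their median log2 change was -0.02. Gnas, the stimulatory alpha subunit, was the most abundant member in every library. Its level was 479.9, 995 and 875 TPM in right and 764, 824 and 706 TPM in left kidneys of coarctation mice, and 781 and 1310.2 TPM in right and 595 and 1144 TPM in left kidneys of sham mice. The groups overlapped, and the lowest value of all was the right kidney of coarctation mouse 1. The inhibitory alpha subunits were far lower: Gnai2 ran from 11.2 to 58.8 TPM, Gnai3 from 7.30 to 17.0 TPM and Gnai1 from 2.08 to 9.74 TPM. The TPM of Gnas was 12.6 to 20.6 times the sum of the 3 inhibitory subunits.

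**Figure D1:**
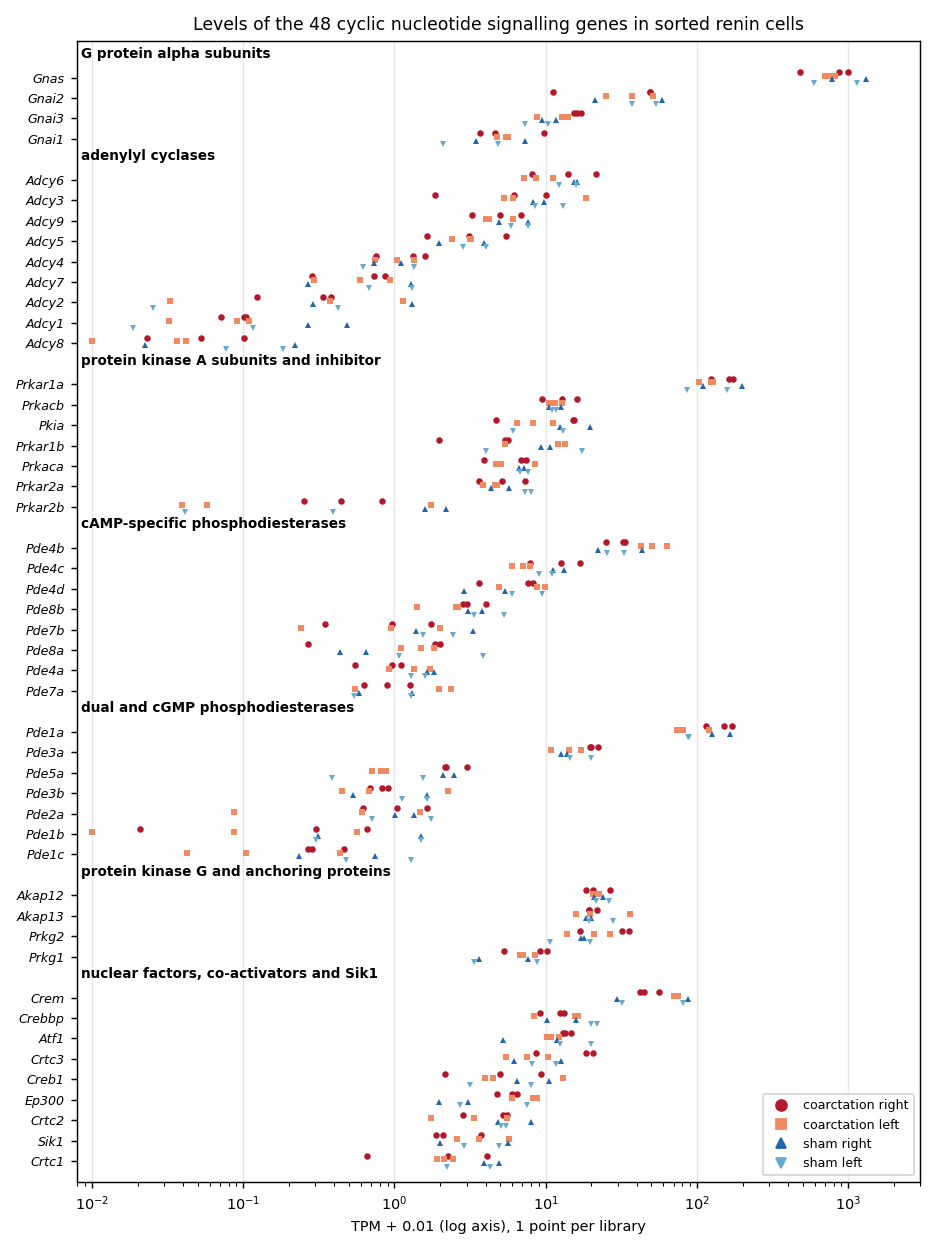
Level of each of the 48 genes in each of the 10 libraries (TPM plus 0.01 on a log axis, 1 point per library), with the genes grouped by role and ordered by mean level. Gnas sits above every other gene at 479.9 to 1310.2 TPM, Prkar1a and Pde1a lead the kinase and phosphodiesterase groups, and Adcy1 and Adcy8 lie at the low end, at 0.476 TPM or less and 0.211 TPM or less.

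Among the 9 adenylyl cyclases, Adcy6, a calcium-inhibited isoform, had the highest mean level. It stood at 8.10, 21.6 and 14.0 TPM in right and 8.64, 11.2 and 7.13 TPM in left kidneys of coarctation mice, and at 15.4 and 16.1 TPM in right and 12.1 and 15.7 TPM in left kidneys of sham mice. All left kidneys of coarctation mice were below all left kidneys of sham mice, which held for 17.2% of all tested genes. The right kidneys overlapped between the surgeries. Adcy3, a calmodulin-responsive cyclase, ran from 1.85 to 18.5 TPM, Adcy9 from 3.27 to 7.67 TPM and the calcium-inhibited Adcy5 from 1.63 to 5.43 TPM. The cyclases that G protein beta and gamma subunits stimulate were low, with Adcy4 at 0.609 to 1.58 TPM, Adcy7 at 0.259 to 1.29 TPM and Adcy2 at 0.0154 to 1.30 TPM. The calcium-stimulated Adcy1 stayed at or below 0.476 TPM and Adcy8 at or below 0.211 TPM, and Adcy8 was listed at 0 in the left kidney of coarctation mouse 1. Adcy6 made up 45.4% to 49.6% of the summed TPM of these 9 cyclases in right and 26.7% to 36.3% in left kidneys of coarctation mice, and 39.7% to 45.9% in right and 33.3% to 41.4% in left kidneys of sham mice. The share was higher on the right in all 3 coarctation mice and in both sham mice. These shares were looked at after the values were known and were not tested.

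Prkar1a, the type I alpha regulatory subunit, dominated protein kinase A. It stood at 124, 163 and 174 TPM in right and 104, 128 and 124 TPM in left kidneys of coarctation mice, and at 109.6 and 199.6 TPM in right and 85.7 and 158 TPM in left kidneys of sham mice. In each of the 5 mice the right kidney was above the left, by 1.20 to 1.41 times, although the groups overlapped. Prkar1a made up 77.7% to 95.5% of the TPM of the 4 regulatory subunits. Prkar1b, the neural type I form, ran from 1.95 to 17.3 TPM and Prkar2a from 3.62 to 8.02 TPM. Prkar2b, the type II beta form, ran from 0.0296 to 2.17 TPM. Of the catalytic subunits, Prkacb was at 9.40 to 16.1 TPM and Prkaca at 3.92 to 8.46 TPM, so that Prkacb held 59.1% to 70.6% of catalytic TPM in every library. The summed regulatory TPM was 5.89 to 11.0 times the summed catalytic TPM. Pkia, the peptide inhibitor of the catalytic subunit, was at 4.68 to 19.5 TPM.

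The 15 phosphodiesterases among the members were led by a dual enzyme. Pde1a, which calcium and calmodulin activate and which cleaves both cAMP and cGMP, was at 115, 150.0 and 169 TPM in right and 73.9, 121 and 80.4 TPM in left kidneys of coarctation mice. In sham mice it was at 126 and 165 TPM in right and 87.3 and 88.9 TPM in left kidneys. The sham groups did not overlap, which says little with 2 libraries in each. The coarctation groups overlapped through the left kidney of mouse 2, and the right kidney was higher in all 5 mice, by 1.24 to 2.11 times. The cGMP-inhibited Pde3a was at 10.8 to 22.2 TPM and the related Pde3b at 0.441 to 2.27 TPM. Pde5a, which cleaves cGMP, was at 0.375 to 3.01 TPM, and Pde2a, which cGMP activates, at 0.0766 to 1.73 TPM. The other calmodulin-dependent forms were scarce, with Pde1b at 0 to 1.50 TPM and Pde1c at 0.0323 to 1.27 TPM.

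Of the 8 cAMP-specific phosphodiesterases, Pde4b was the most abundant. Its level was 32.6, 33.6 and 25.0 TPM in right and 42.4, 63.5 and 50.5 TPM in left kidneys of coarctation mice, and 22.3 and 43.6 TPM in right and 25.4 and 33.0 TPM in left kidneys of sham mice. Every left kidney of a coarctation mouse was above every right kidney of a coarctation mouse and every left kidney of a sham mouse. The next were Pde4c at 6.00 to 16.8 TPM, Pde4d at 2.88 to 9.93 TPM and Pde8b at 1.40 to 5.25 TPM. Pde7b (0.233 to 3.31 TPM), Pde8a (0.257 to 3.84 TPM), Pde4a (0.542 to 1.82 TPM) and Pde7a (0.530 to 2.35 TPM) were near 1 TPM or a few TPM.

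The shares of Pde1a and Pde4b are given first within the summed TPM of the 15 member phosphodiesterases. Pde1a held 60.6% to 66.3% in right and 46.7% to 53.7% in left kidneys of coarctation mice, and 65.1% to 65.6% in right and 50.7% to 53.9% in left kidneys of sham mice. Pde4b held 9.80% to 17.2% in right and 27.7% to 29.4% in left kidneys of coarctation mice, and 11.6% to 17.2% in right and 15.7% to 18.8% in left kidneys of sham mice. Another 9 phosphodiesterase genes in the table are not members, and they summed to 64.0 to 157 TPM in right and 66.0 to 87.7 TPM in left kidneys of coarctation mice, and to 76.1 to 119 TPM in right and 72.7 to 102.6 TPM in left kidneys of sham mice. Most of that sum was Pde6d, a subunit of the photoreceptor enzyme that binds prenylated proteins and does not cleave cyclic nucleotides. Within all 24 genes, Pde4b held 7.53% to 12.9% in right and 17.6% to 21.2% in left kidneys of coarctation mice, and 8.31% to 11.7% in right and 10.8% to 11.9% in left kidneys of sham mice. The left kidneys of coarctation mice were thus above the 7 other libraries in the Pde4b share with either sum. Within all 24 genes, Pde1a held 38.2% to 51.0% in right and 30.7% to 39.1% in left kidneys of coarctation mice, and 44.2% to 47.0% in right and 31.97% to 37.2% in left kidneys of sham mice. The coarctation kidneys overlapped in the Pde1a share with that sum, and did not within the 15 members. The TPM of Pde1a was 3.52, 4.46 and 6.77 times that of Pde4b in right and 1.74, 1.91 and 1.59 times in left kidneys of coarctation mice, and 5.65 and 3.78 times in right and 3.44 and 2.69 times in left kidneys of sham mice. These shares and ratios were also chosen with the values in view and carry no test.

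**Figure D2:**
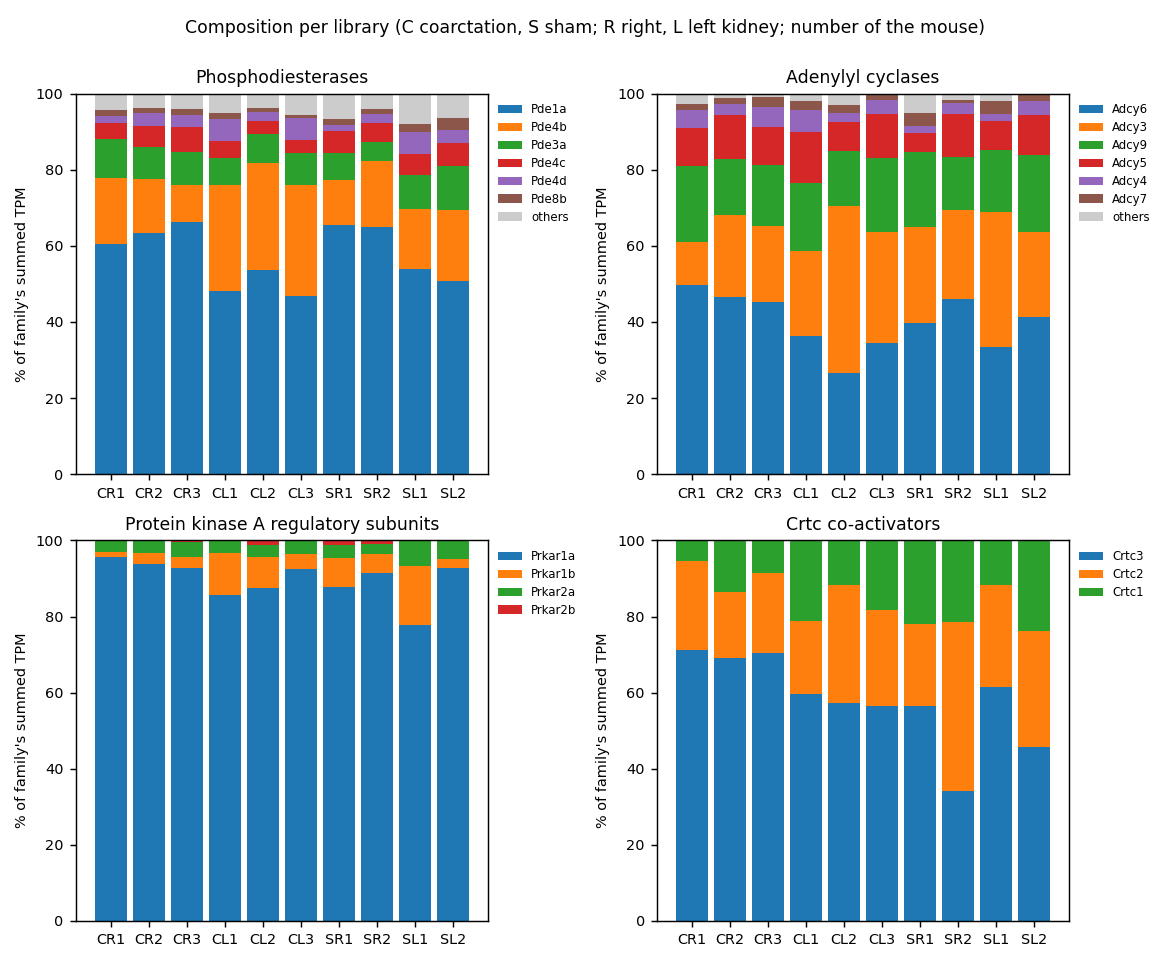
Share of each family's summed TPM (%) in each of the 10 libraries, for the 15 phosphodiesterases and 9 adenylyl cyclases among the members, regulatory subunits of protein kinase A and Crtc co-activators, with each stacked bar adding to 100 and the label giving surgery, side and mouse. The Pde4b band is widest in the left kidneys of coarctation mice (27.7% to 29.4%), and Prkar1a fills 77.7% or more of the regulatory subunits in every library.

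The effectors of cGMP and the anchoring proteins were of middle abundance. Prkg2, protein kinase G II, was at 10.7 to 35.7 TPM and Prkg1 at 3.33 to 10.2 TPM, and Prkg2 held 66.4% to 82.7% of the pair. Akap12, a scaffold that binds protein kinase A, was at 18.6, 26.7 and 20.7 TPM in right and 20.4, 22.4 and 20.9 TPM in left kidneys of coarctation mice, and 20.9 and 23.8 TPM in right and 21.5 and 26.0 TPM in left kidneys of sham mice. The groups overlapped throughout. Akap13, another anchoring protein of protein kinase A, was at 15.8 to 36.3 TPM.

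Among the nuclear factors Crem, the cAMP response element modulator, was the most abundant. It stood at 44.4, 42.1 and 55.8 TPM in right and 75.0, 70.8 and 75.0 TPM in left kidneys of coarctation mice, and at 29.7 and 87.5 TPM in right and 31.7 and 80.4 TPM in left kidneys of sham mice. The coarctation kidneys did not overlap between sides, while in sham mice both kidneys of mouse 1 were low and both of mouse 2 were high. Crem held 60.8% to 83.6% of the summed TPM of Crem, Atf1 and Creb1. Atf1 was at 5.22 to 19.9 TPM and Creb1, the founding CREB factor, at 2.14 to 13.0 TPM. The acetyltransferases that CREB recruits were Crebbp at 8.39 to 21.7 TPM and Ep300 at 1.96 to 8.73 TPM. Of the CREB-regulated co-activators, Crtc3 was at 5.42 to 20.6 TPM, Crtc2 at 1.74 to 8.04 TPM and Crtc1 at 0.645 to 4.89 TPM. Sik1, the kinase that phosphorylates these co-activators and keeps them out of the nucleus, was at 1.88 to 5.70 TPM. Crtc3 held 69.0% to 71.2% of Crtc TPM in right and 56.4% to 59.7% in left kidneys of coarctation mice, and 34.2% to 56.4% in right and 45.6% to 61.5% in left kidneys of sham mice.

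Crem is known for producing short repressor forms, named ICER, from an internal promoter. The table gives no level for single transcripts, so that which forms were present was not tested.

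Right and left kidneys of coarctation mice lie on either side of the narrowing, and the comparison asks what differs between their renin cells in the same animal. No member passed the test: 0 of 48 had an adjusted p under 0.05 with edgeR's quasi-likelihood test (0% of all tested genes passed), and 0 passed in each of the 17 alternative analyses. With the mouse as a replicate block, 5 of all 18825 genes passed and none was a member. At an unadjusted p under 0.05 were 4 members (8.33%), against 871 of all genes (4.63%), with Pde5a and Crtc3 higher and Pde4b and Prkar1b lower in the right kidneys. At that level DESeq2 gave 4 of the 47 members to which it gave a p (8.51%, against 6.48% of all genes), and the replicate block gave 6 of 48 (12.5%, against 5.93% of all genes). The median log2 change of the members was -0.06, against 0.02 for all tested genes, with 21 members above 0 and 27 below.

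Pde4b was lower and Pde5a higher in the right than in the left kidney of all 3 coarctation mice, and neither passed the test. Pde4b (chr4:102087543-102607259, plus strand) averaged 30.4 ± 4.70 TPM in right and 52.2 ± 10.6 TPM in left kidneys (SD, n = 3 each). Its log2 change, right minus left, was -0.91 (SE 0.33, edgeR adjusted p = 1, and 0.378 or more in all alternatives), and the right kidney was lower in 3 of 3 mice, at 0.768, 0.530 and 0.495 times the left. Pde5a (chr3:122728947-122859374, plus strand) was at 2.19, 2.13 and 3.01 TPM in right and 0.808, 0.695 and 0.869 TPM in left kidneys of coarctation mice. These groups did not overlap, and every right kidney was more than 2 times its partner, at 2.71, 3.07 and 3.46 times. The log2 change of Pde5a was 1.46 (SE 0.53, edgeR adjusted p = 1, and 0.262 or more in all alternatives). In the sham mice Pde5a was at 2.48 and 2.07 TPM in right and 0.375 and 1.53 TPM in left kidneys, so that the right kidney was the higher one in all 5 mice.

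The co-activator Crtc3 (chr7:80586627-80688877, minus strand) was at 8.58, 20.6 and 18.5 TPM in right and 5.42, 10.3 and 7.52 TPM in left kidneys of coarctation mice. The right kidney was higher in 3 of 3 mice, at 1.58, 2.01 and 2.45 times the left, although the groups overlapped through the right kidney of mouse 1. Its log2 change was 0.86 (SE 0.36, edgeR adjusted p = 1, and 0.556 or more in all alternatives). Prkar1b was at 1.95, 5.34 and 5.63 TPM in right and 13.4, 12.0 and 5.36 TPM in left kidneys of coarctation mice. It was lower on the right in mice 1 and 2 only, and the log2 change of -1.46 (SE 0.59, edgeR adjusted p = 1) was -0.81 without mouse 1 of each surgery. The average transcript length given for Prkar1b ran from 613 to 2095 bases over the libraries, and its part in the change was not tested. Adcy3 was at 1.85, 10.0 and 6.14 TPM in right and 5.31, 18.5 and 6.08 TPM in left kidneys of coarctation mice, and these groups overlapped. The log2 change of Adcy3 was -0.90 (SE 0.54, edgeR adjusted p = 1), and it was -0.10 without the left kidney of mouse 2 and -0.42 without the right kidney of mouse 1. Akap13 was at 19.4, 21.8 and 19.4 TPM in right and 15.8, 36.3 and 19.6 TPM in left kidneys, with the left kidney of mouse 2 above all others. The log2 change of Akap13 was -0.36 (SE 0.33, edgeR adjusted p = 1), and without that library it was 0.10. Gnai3, an inhibitory alpha subunit, was at 17.0, 15.4 and 16.1 TPM in right and 14.1, 8.78 and 12.7 TPM in left kidneys of coarctation mice, with no overlap and a log2 change of 0.27 (SE 0.35, edgeR adjusted p = 1).

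The TPM of right and left coarctation kidneys did not overlap for 7 members. The 5 that were higher on the right (10.4% of members, against 8.19% of all genes) were Pde5a, Pde3a, Pde8b, Gnai3 and Atf1, and the 2 that were lower (4.17%, against 2.97% of all genes) were Pde4b and Crem. Compared within mice, 12 members were higher on the right in all 3 coarctation mice (25%, against 20.8% of all genes) and 3 were lower in all 3 (6.25%, against 8.15% of all genes). The 3 lower ones were Pde4b, Crem and Ep300, named after their values were seen. Crem averaged 47.4 ± 7.31 TPM in right and 73.6 ± 2.43 TPM in left kidneys of coarctation mice (SD, n = 3 each), with the right at 0.592, 0.594 and 0.743 times the left. Its log2 change was -0.79 (SE 0.46, edgeR adjusted p = 1; adjusted p = 0.645 with the mouse as a replicate block). These shares of members lay near those of all genes. The values of Ren1 and of the markers of other cells in these kidneys are given above.

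**Figure D3:**
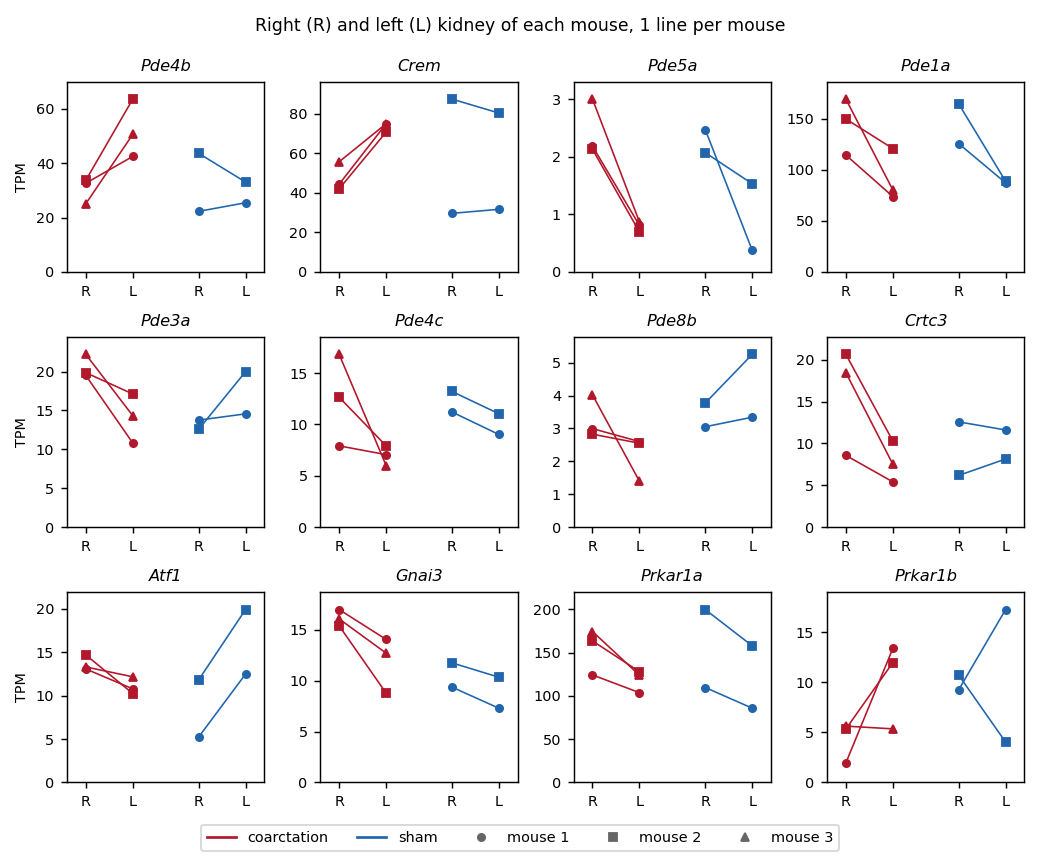
TPM in the right (R) and left (L) kidney of each mouse for 12 members, with 1 line per mouse, coarctation in red and sham in blue, and a marker for the number of the mouse. Pde4b and Crem slope upwards to the left kidney in all 3 coarctation mice, Pde5a, Pde1a, Pde4c, Gnai3 and Prkar1a slope downwards in all 5 mice, and Pde3a, Pde8b and Atf1 slope in opposite directions under the 2 surgeries.

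The sham kidneys show how the sides differ without a narrowing. No member had an adjusted p under 0.05 (0% of all tested genes passed), and 1 of 48, Pde8a, had an unadjusted p under 0.05, against 1.94% of all genes. At that level DESeq2 gave 2 of 47 members (4.26%, against 3.7% of all genes), and the replicate block gave 6 of 48 (12.5%, against 3.01% of all genes), of which 4 were higher on the right. The median log2 change of the members, right minus left, was -0.05, against 0.02 for all genes, with 22 above 0 and 26 below. In both sham mice 11 members were higher on the right (22.9%, against 26.9% of all genes) and 13 were lower (27.1%, against 22.3% of all genes).

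Pde8a, a cAMP-specific phosphodiesterase, was at 0.640 and 0.427 TPM in right and 1.06 and 3.84 TPM in left kidneys of sham mice. The groups did not overlap, and the left kidney of mouse 2 was the highest of all libraries. The log2 change of Pde8a was -2.30 (SE 0.98, edgeR adjusted p = 1, and 0.700 or more in all alternatives). Pde1a had a log2 change of 0.70 (SE 0.33, edgeR adjusted p = 1) in sham mice, beside 0.51 (SE 0.27, edgeR adjusted p = 1) in coarctation mice. Members near the detection limit gave large but loose values: Adcy1 was at 0.476 and 0.259 TPM in right and 0.107 and 0.00878 TPM in left kidneys of sham mice, with a log2 change of 2.64 (SE 1.25). Prkar2b was at 1.59 and 2.17 TPM in right and 0.0311 and 0.381 TPM in left kidneys of sham mice, with a log2 change of 3.13 (SE 1.68). Neither pair of groups overlapped, and neither passed the test (edgeR adjusted p = 1). With 2 libraries in each sham group, a lack of overlap says little, here and for Pde8a and Pde1a. Its share over all genes was not computed for the sham sides. Ep300 was at 1.96 and 3.05 TPM in right and 7.55 and 2.72 TPM in left kidneys of sham mice. These groups overlapped. Its log2 change was -1.01 (SE 0.51, edgeR adjusted p = 1). Without mouse 1 of each surgery, which left 1 sham mouse, it was 0.16. In their classes the members of smallest p were Gnai1 and Akap13. Gnai1 was at 7.29 and 3.45 TPM in right and 2.08 and 4.84 TPM in left kidneys of sham mice, and Akap13 at 18.5 and 19.9 TPM in right and 19.2 and 28.0 TPM in left kidneys. The Gnai1 groups overlapped, with mouse 1 and mouse 2 in opposite directions, and its log2 change was 0.53 (SE 0.65), beside -0.34 (SE 0.40) for Akap13, both with an edgeR adjusted p of 1.

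Across both surgeries, 5 members were higher on the right in all 5 mice: Pde1a, Pde5a, Pde4c, Prkar1a and Gnai3 (10.4%, against 5.96% of all genes). None was lower on the right in all 5 (0%, against 1.95% of all genes). For Pde4c, a cAMP-specific phosphodiesterase, the right kidney was at 1.12, 1.60 and 2.80 times the left in coarctation mice and at 1.24 and 1.20 times in sham mice. For Gnai3 the right kidney was at 1.21, 1.75 and 1.26 times the left in coarctation mice and at 1.28 and 1.14 times in sham mice. The side changes of these 5 genes in coarctation and sham mice come from different animals, and none passed the test in either surgery.

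**Figure D4:**
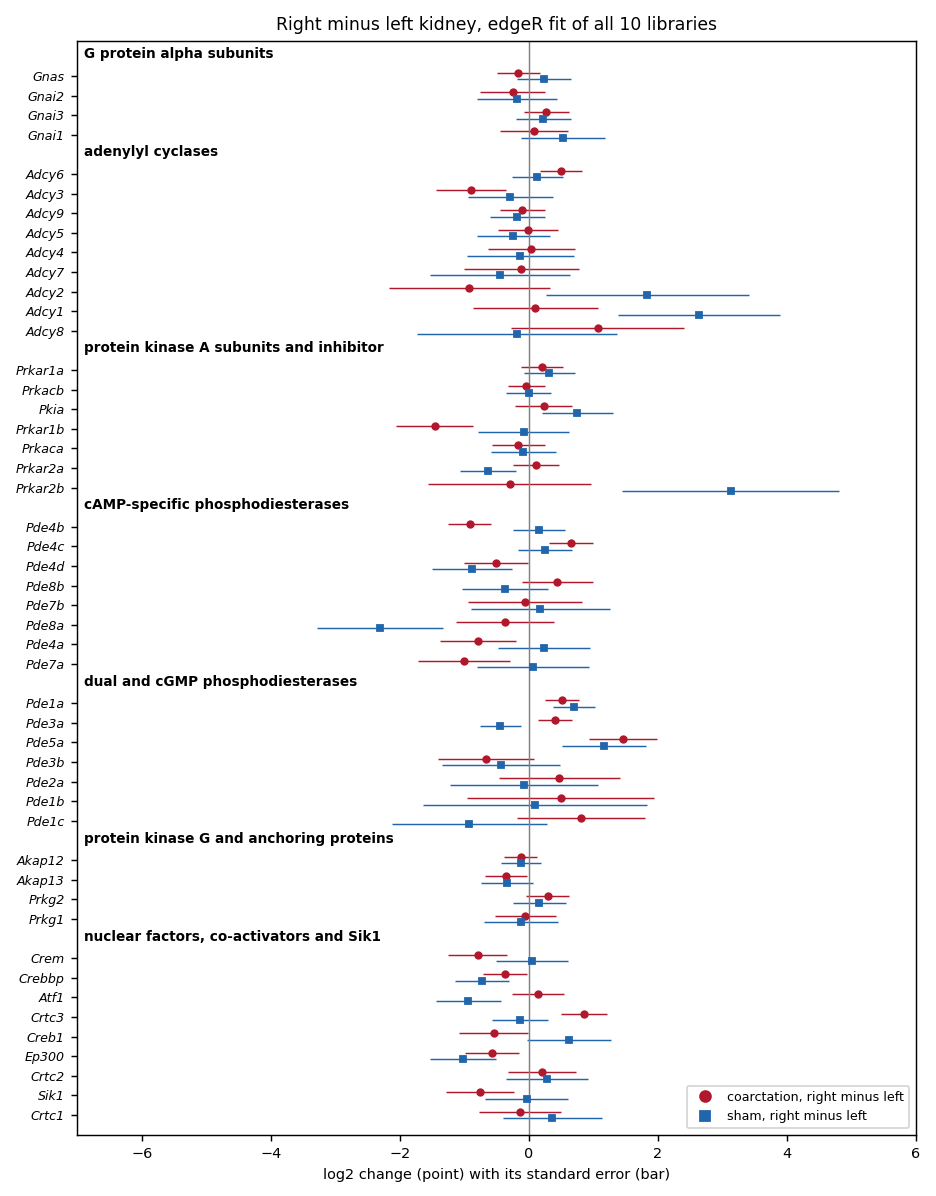
Log2 change of each member between right and left kidneys (right minus left), in coarctation mice (red circles) and sham mice (blue squares), with bars of 1 standard error from the edgeR model of all 10 libraries. The 2 surgeries lie apart for Pde4b (-0.91 in coarctation and 0.16 in sham) and Pde3a (0.41 and -0.44), and both lie above 0 for Pde5a (1.46 and 1.17) and Pde1a (0.51 and 0.70).

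The side change in coarctation mice minus the side change in sham mice tests whether the kidneys differ beyond their ordinary difference. No member passed (0% of all tested genes passed), and 0 of 48 had an unadjusted p under 0.05, against 3.05% of all genes. At that level DESeq2 gave 0 of 47 members (against 4.86% of all genes), and the replicate block gave 4 of 48 (8.33%, against 4.15% of all genes), of which 3 were above 0. The median of the members was -0.01, against 0.02 for all genes. The members of smallest p in the phosphodiesterase classes were Pde3a, with a difference of 0.85 (SE 0.41), and Pde4b, with a difference of -1.07 (SE 0.52), both on the log2 scale with an edgeR adjusted p of 1.00. The Pde4b difference was -0.33 without the right kidney of sham mouse 2 and -1.56 without that of sham mouse 1. Pde3a, which cGMP inhibits, was at 19.5, 19.8 and 22.2 TPM in right and 10.8, 17.1 and 14.3 TPM in left kidneys of coarctation mice, and at 13.8 and 12.6 TPM in right and 14.6 and 20.0 TPM in left kidneys of sham mice. The right kidney was thus the higher one in every coarctation mouse and the lower one in both sham mice. The same held for Atf1 and Pde8b, which makes 3 members (6.25%, against 4.11% of all genes). No member was lower on the right in every coarctation mouse and higher in every sham mouse (0%, against 2.15% of all genes).

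Atf1, a CREB family factor, was at 13.1, 14.7 and 13.3 TPM in right and 10.8, 10.3 and 12.2 TPM in left kidneys of coarctation mice, and at 5.22 and 11.8 TPM in right and 12.5 and 19.9 TPM in left kidneys of sham mice. The left sham kidneys were above all left coarctation kidneys, and the right sham kidneys were below all right coarctation kidneys. Pde8b was at 2.99, 2.83 and 4.02 TPM in right and 2.60, 2.55 and 1.40 TPM in left kidneys of coarctation mice, and at 3.05 and 3.77 TPM in right and 3.34 and 5.25 TPM in left kidneys of sham mice. Its kidneys did not overlap under coarctation, and did under sham. Crtc3 had a difference of 1.00 (SE 0.56), Prkar2b of -3.43 (SE 2.07), Adcy1 of -2.54 (SE 1.56), Gnas of -0.40 (SE 0.53) and Prkg2 of 0.13 (SE 0.53), with an edgeR adjusted p of 1.00 for all 5. In sham mice Crtc3 was at 12.6 and 6.18 TPM in right and 11.6 and 8.15 TPM in left kidneys, so that its kidneys overlapped there. Prkar2b was at 0.242, 0.436 and 0.823 TPM in right and 0.0296, 1.74 and 0.0479 TPM in left kidneys of coarctation mice, and without the left kidney of mouse 2 its difference was 0.21. The sign of the Prkar2b value thus rested on 1 library. Adcy1 was at 0.0618, 0.0906 and 0.0945 TPM in right and 0.0984, 0.0807 and 0.0223 TPM in left kidneys of coarctation mice, and these groups overlapped.

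Left kidneys of coarctation mice were next set against left kidneys of sham mice, which share no animals. No member passed (0% of all tested genes passed), and 1 of 48, Pde4b, had an unadjusted p under 0.05, against 4.75% of all genes. DESeq2 gave 2 of 47 members at that level (4.26%, against 6.79% of all genes). The median log2 change of the members, coarctation minus sham, was 0.07, against -0.02 for all genes, with 27 above 0 and 21 below. Pde4b was at 42.4, 63.5 and 50.5 TPM in coarctation and 25.4 and 33.0 TPM in sham left kidneys. The groups did not overlap, and the log2 change was 1.07 (SE 0.38, edgeR adjusted p = 0.912, and 0.560 or more in all alternatives). Pde4b was the 1 member that was higher without overlap (2.08%, against 4.87% of all genes). Another 8 were lower without overlap (16.7%, against 17.2% of all genes), namely Adcy6, Adcy8, Pde4c, Pde8b, Pde1c, Prkar2a, Atf1 and Crebbp.

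The other classes are given by their member of smallest p. The calmodulin-dependent Pde1c was at 0.0323, 0.427 and 0.0938 TPM in coarctation and 1.27 and 0.469 TPM in sham left kidneys, with a log2 change of -2.04 (SE 1.08). Ep300 was at 5.93, 8.73 and 8.19 TPM in coarctation and 7.55 and 2.72 TPM in sham left kidneys, with a log2 change of 0.85 (SE 0.47). The Pde1c groups lay apart by a small step, and the Ep300 groups overlapped, with sham mouse 2 low. Gnai3 was at 14.1, 8.78 and 12.7 TPM in coarctation and 7.30 and 10.3 TPM in sham left kidneys, with a log2 change of 0.70 (SE 0.40). Prkg2 was at 13.9, 26.5 and 21.0 TPM in coarctation and 10.7 and 19.5 TPM in sham left kidneys, with a log2 change of 0.65 (SE 0.38). Both of these genes overlapped between the groups. Prkar2a, the type II alpha regulatory subunit, was at 3.84, 4.61 and 4.72 TPM in coarctation and 7.24 and 8.02 TPM in sham left kidneys, with a log2 change of -0.55 (SE 0.39) and no overlap. Adcy8 was at 0, 0.0320 and 0.0267 TPM in coarctation and 0.172 and 0.0667 TPM in sham left kidneys, with a log2 change of -2.27 (SE 1.45), and its levels were too low for a firm value. All of these had an edgeR adjusted p of 0.912.

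Right kidneys of coarctation mice were set against right kidneys of sham mice in the same way. No member passed (0% of all tested genes passed), and 3 of 48 (6.25%) had an unadjusted p under 0.05, against 3.82% of all genes: Ep300, Pde3a and Crtc3, all higher in coarctation. DESeq2 gave 4 of 47 members at that level (8.51%, against 5.99% of all genes). The median log2 change of the members was -0.01, against -0.05 for all genes, with 23 above 0 and 25 below. The TPM of the groups did not overlap for 4 members that were higher in coarctation, Ep300, Pde3a, Gnai3 and Atf1 (8.33%, against 5.41% of all genes). It did not overlap for 4 that were lower, Adcy1, Pde4a, Prkar1b and Prkar2b (8.33%, against 11% of all genes).

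Ep300 (chr15:81585351-81652077, plus strand), the acetyltransferase p300, was at 4.72, 5.97 and 6.46 TPM in coarctation and 1.96 and 3.05 TPM in sham right kidneys. Its log2 change was 1.29 (SE 0.48, edgeR adjusted p = 0.995, and 0.351 or more in all alternatives). The lowest value of Ep300 in any library was the right kidney of sham mouse 1. Pde3a (chr6:141249269-141507448, plus strand) averaged 20.5 ± 1.47 TPM in coarctation (SD, n = 3) and 13.2 ± 0.845 TPM in sham right kidneys (SD, n = 2). Its log2 change was 0.79 (SE 0.30, edgeR adjusted p = 0.995, and 0.524 or more in all alternatives), and every coarctation value was above every sham value. Prkg2, at 16.9, 35.7 and 32.1 TPM in coarctation and 17.2 and 17.9 TPM in sham right kidneys, had a log2 change of 0.78 (SE 0.38). Its groups overlapped through coarctation mouse 1. Gnai3 was at 17.0, 15.4 and 16.1 TPM in coarctation and 9.37 and 11.8 TPM in sham right kidneys, with a log2 change of 0.75 (SE 0.40). Prkar1b was at 1.95, 5.34 and 5.63 TPM in coarctation and 9.25 and 10.7 TPM in sham right kidneys, with a log2 change of -1.14 (SE 0.64). Neither Gnai3 nor Prkar1b overlapped between the groups. Adcy1, at 0.0618, 0.0906 and 0.0945 TPM in coarctation and 0.476 and 0.259 TPM in sham right kidneys, had a log2 change of -2.02 (SE 1.07). Pde8a, at 0.257, 1.85 and 2.00 TPM in coarctation and 0.640 and 0.427 TPM in sham right kidneys, had a log2 change of 1.45 (SE 0.90) and overlapped. The edgeR adjusted p was 0.995 for each of these.

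**Figure D5:**
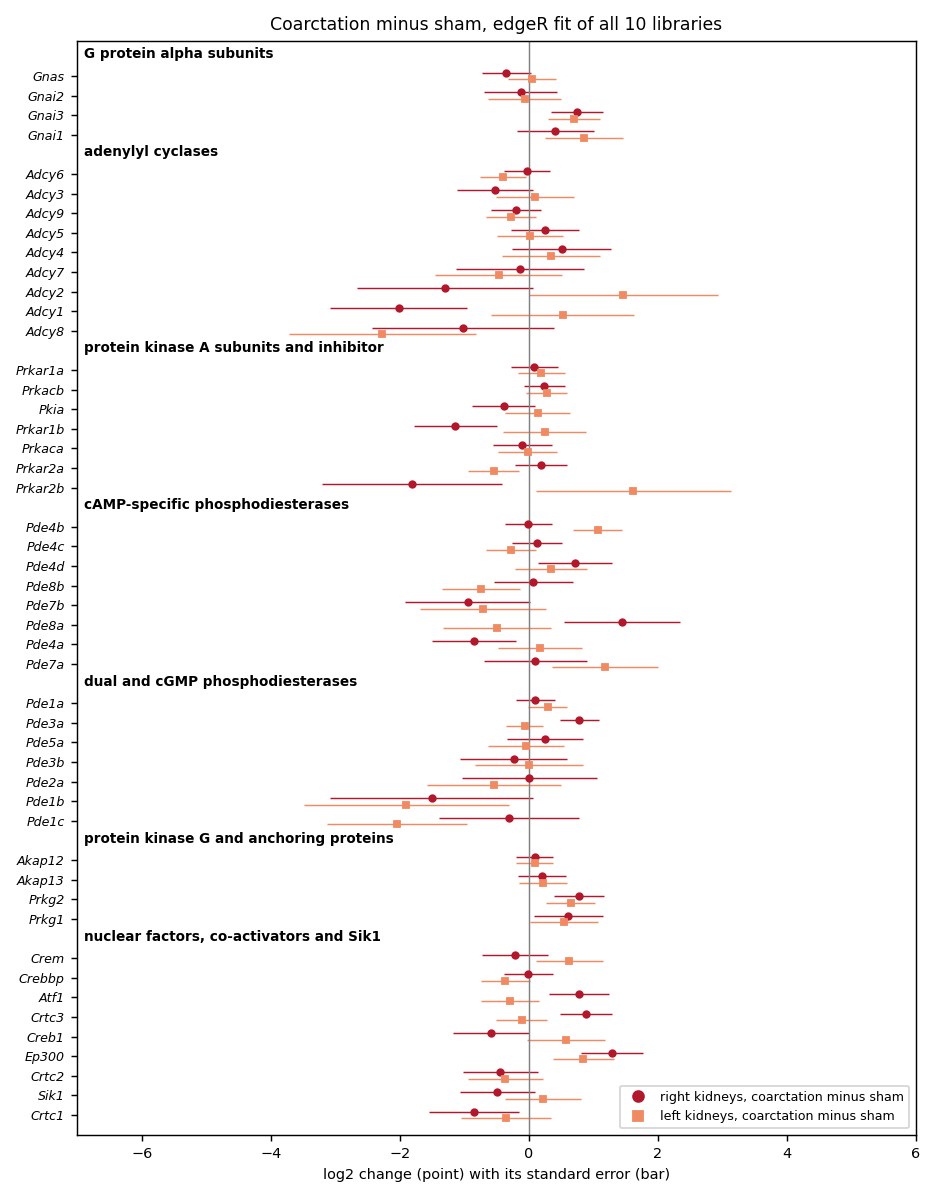
Log2 change of each member between surgeries (coarctation minus sham), in right kidneys (red circles) and left kidneys (orange squares), with bars of 1 standard error from the edgeR model of all 10 libraries. Pde4b is at 1.07 in left and -0.01 in right kidneys, Pde3a is at 0.79 in right and -0.06 in left kidneys, and Gnai3 and Prkg2 lie above 0 on both sides.

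The comparisons share groups: the right coarctation kidneys enter the comparison with their left partners and the one with sham right kidneys, and a single group can move both. For Pde3a the right coarctation kidneys had the highest group mean, 20.5 ± 1.47 TPM (SD, n = 3), and for Pde4b the left coarctation kidneys did, 52.2 ± 10.6 TPM (SD, n = 3). For Prkar1b the right coarctation kidneys had the lowest group mean, 4.30 ± 2.05 TPM (SD, n = 3).

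Other genes of the pathway were counted from lists of phosphodiesterases, cAMP effectors, anchoring proteins, guanylyl cyclases and natriuretic receptors, receptors that couple to Gs or Gi, CREB and SIK family genes, and known cAMP response genes. Of the 80 such genes that were tested, 0 passed in any comparison with edgeR, with or without the replicate block. At an unadjusted p under 0.05 were 4 between the kidneys of coarctation mice (5%, against 4.63% of all genes), of which 1 was higher and 3 were lower on the right. There was 1 between sham kidneys (1.25%, against 1.94% of all genes), higher on the right, and 1 for the difference between surgeries (1.25%, against 3.05%), which was lower. There were 4 between left kidneys (5%, against 4.75%) and 4 between right kidneys (5%, against 3.82%), with 2 higher and 2 lower in coarctation in each. The one of smallest p between the kidneys of coarctation mice was Npr3, the natriuretic peptide clearance receptor, at 1.02, 1.41 and 1.15 TPM in right and 6.43, 5.57 and 3.09 TPM in left kidneys. In sham mice it was at 2.79 and 5.19 TPM in right and 3.57 and 5.26 TPM in left kidneys. The right coarctation kidneys lay below all 7 other libraries. The log2 change of Npr3 was -2.25 (SE 0.42, edgeR adjusted p = 0.286) between the kidneys of coarctation mice. Npr3 also had the smallest p for the difference between surgeries in the side change (-2.09, SE 0.65, edgeR adjusted p = 1.00) and for right kidneys between surgeries (-1.65, SE 0.45, edgeR adjusted p = 0.995). Akap9, a scaffold of protein kinase A, came first between the sham kidneys (log2 change 1.06, SE 0.41, edgeR adjusted p = 1), at 121 and 60.0 TPM in right and 30.9 and 50.6 TPM in left kidneys. Drd5, a dopamine receptor coupled to Gs, came first between left kidneys (log2 change -3.63, SE 1.49, edgeR adjusted p = 0.912), at 0.131 TPM or less in all 10 libraries.

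Among 13 cAMP response genes, 8 had a log2 change above 0 and 5 below between the right and left kidneys of coarctation mice, with a median of 0.12, against 0.02 for all genes. Among 20 receptors that couple to Gs or Gi, 9 were above 0 and 11 below in the same comparison, with a median of -0.01. At an unadjusted p under 0.05 between those kidneys, edgeR gave 0 of the 13 cAMP response genes. With the mouse as a replicate block 4 were higher and 0 lower on the right, against 5.93% of all genes in either direction. The replicate block gave 1 of the 20 receptors, lower on the right. For the difference between surgeries it gave 2 cAMP response genes above 0 and 0 below, against 4.15% of all genes. Neither list held a gene that passed the test.

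The exons of 12 members overlap those of another gene in GENCODE vM21, 3 on the same strand and 9 on the opposite strand. Gnas overlaps the antisense gene Nespas, Adcy3 overlaps Cenpo, and Pde3a, Pde5a, Adcy6 and Crem overlap predicted or uncharacterised genes on the opposite strand. On the same strand, Ep300 overlaps Gm23880, Prkar1b overlaps Gm15672 and Pde2a overlaps Gm45837, and strand cannot tell their shared reads apart. For the opposite strand, whether the counting used strand is not given in the sources used here. The levels of all 12 members are thus uncertain by the reads they may share.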

How the data were processed

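Samples were grouped by surgery and side from their titles, and the mouse number in the titles marks the animal and so pairs its kidneys. The deposited table holds, per the file headers, TPM, estimated counts and average transcript lengths in bases. Its estimated counts were derived by the authors from TPM with a correction for length and library size (lengthScaledTPM per the file headers). The average length of a gene could differ widely between libraries. It ran from 1005 to 2840 bases for Adcy3, 1603 to 5825 for Ep300 and 2424 to 6541 for Creb1. What these lengths add to the values of such genes was not tested. The submitters' processing notes name FastQC and GRCm38 (mm10). For the aligner, quantifier and annotation, the sources used here give no name.

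Rounded estimated counts were tested in R 4.3.3 with edgeR 4.0.16 (filterByExpr, TMM, quasi-likelihood) in a model with 4 groups, all 10 libraries, 6 residual degrees of freedom and a common dispersion of 0.450, which treats kidneys as independent. Benjamini-Hochberg adjustment covered 18825 genes, with a threshold of 0.05. Left and right kidneys of a mouse deviated from their group means with correlations of 0.127, 0.0496 and 0.0307 (coarctation) and 0.398 (sham). There were 5 comparisons: side within coarctation, side within sham, the difference of these, and surgery within left and within right kidneys.

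Alternatives were the mouse as a fixed replicate block, limma-voom (limma 3.58.1) with the mouse as a random block, DESeq2 1.42.0, DESeq2 size factors in edgeR, no filter, limma on log2(TPM + 1), each library left out, and mouse 1 of each surgery left out. Test statistics are given for the member of smallest unadjusted p in each of 7 functional classes per comparison, and, chosen after their values were seen, for Crem and Pde1a between coarctation kidneys and for Pde8b and Atf1 in the difference. Per-library values are given for these and for the most abundant member of each class, and TPM ranges for all. Members counted by overlap or by direction within mice, and those compared as shares, were named after their values were seen. The members, classes and lists of other genes were chosen with earlier results of these data known. Positions are from GENCODE vM21 and promoters from RefSeq (GRCm38.p6). The edgeR test with and without the replicate block, DESeq2 and limma-voom were tried on simulated data. That trial covered only right minus left in coarctation mice and held no mouse effect. The analysis with no filter, limma on log2(TPM + 1) and the other comparisons were not tried in this way. Without molecular identifiers, counts within 1 library cover counting error only.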

Additional observations from a re-analysis of the deposited data

Results flagged for a closer look

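For 3 members the right kidney was above the left in all 3 coarctation mice and below it in both sham mice. The difference of the side changes, coarctation minus sham, was 0.81 on the log2 scale for Pde8b (SE 0.87), 0.85 for Pde3a (SE 0.41) and 1.08 for Atf1 (SE 0.64). The test of that difference did not pass for any of them (edgeR adjusted p = 1.00), and with 3 against 2 mice the pattern of opposite directions was found in 4.11% of all tested genes.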

How the results depend on the processing

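No member passed the threshold in any comparison under any of the 17 alternatives. Over all genes the main analysis called 0 in each comparison. With the mouse as a fixed replicate block 5 genes were called between the kidneys of coarctation mice and 0 in the other paired comparisons, and limma-voom with the mouse as a random block called 6 between the kidneys of coarctation mice. In the order kidneys of coarctation mice, kidneys of sham mice, their difference, left kidneys and right kidneys, DESeq2 called 76, 28, 34, 39 and 57 genes, and the analysis with no filter called 112, 19, 63, 67 and 70. limma on log2(TPM + 1) called 2 genes between the sham kidneys and 3 between left kidneys. Without mouse 1 of each surgery, 1 gene was called between the kidneys of coarctation mice and 1 between right kidneys. Leaving out each library in turn gave 0 to 3 genes in those same 2 comparisons, the 3 without the right kidney of coarctation mouse 3. The cause of these shifts was not tested.

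The median log2 change of the members stayed close to 0. Leaving out each library moved it between -0.15 and 0.23 for the kidneys of coarctation mice, between -0.30 and 0.24 for sham kidneys, between -0.22 and 0.31 for their difference, between -0.13 and 0.24 for left kidneys and between -0.10 and 0.32 for right kidneys, and limma on log2(TPM + 1) gave -0.12 for left kidneys. For the kidneys of coarctation mice the highest came without coarctation right kidney 1 (0.23), and for sham kidneys the extremes came without sham right kidney 1 (0.24) or 2 (-0.30), and the 0.31 and 0.32 of the difference and of right kidneys came without sham right kidney 2.

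Of 581 alternative values for the 35 member results chosen by smallest p in a class, 571 kept their direction and 10 reversed it, and none crossed the threshold. Leaving out a library gave -0.44 to 0.10 for Akap13 and, in sham kidneys, -0.65 to 0.051 for Akap13 and -0.011 to 1.36 for Gnai1. For the difference between surgeries it gave -6.49 to 0.21 for Prkar2b, -1.05 to 0.20 for Gnas and -0.46 to 0.56 for Prkg2. Without mouse 1 of each surgery 1 sham mouse was left, and its side change was -0.49 for Gnai1 and 0.16 for Ep300. Leaving out a sham library likewise left 1 library in its group. Adcy1, Adcy2, Adcy8, Pde1b, Pde1c and Prkar2b had 3 estimated counts or fewer in at least 1 library, which limits what can be said of them.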
